A study of Arabidopsis thaliana with 24 samples.

Results

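Transcripts bound to ribosomes in the stele, the central vascular cylinder of the root, were compared between hyl1 mutant and Col0 wild-type plants of Arabidopsis thaliana. The mutant plants were of the Columbia-0 background and carried the hyl1 mutation with the transgene pSHR::HF:RPL18, and the wild-type plants were Columbia-0 with the same transgene. The transgene puts a tagged ribosomal protein L18 under the promoter of SHORT-ROOT (SHR), and ribosomes carrying it were pulled down with an anti-FLAG M2 gel before RNA was extracted. Each group had 2 libraries, from roots collected after 6 days in light at 22 °C, with about 20 plates in each sample, and the allele of hyl1 is not given in the sources used here. These 4 libraries are part of a series of 24, and 18054 of the 33602 genes in the count table passed the filter on low counts. All 18054 genes were tested for hyl1 against Col0. Nothing in the labels says that the 2 libraries of a group came from separate cultures, so the p-values speak only of how these samples vary, which may be technical variation.

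In the nucleus HYL1 binds the double-stranded stems of primary microRNA transcripts beside the RNase III enzyme DCL1 and the zinc finger protein SE, and it helps to place the cuts that release the microRNA. The mature microRNA is loaded mostly into AGO1 and pairs with target mRNAs, which are then cut or translated less. Many plant microRNA targets are transcription factors, and in the stele microRNAs of the miR165 and miR166 families help to pattern the xylem by limiting class III HD-ZIP mRNAs. SHR is itself a transcription factor made in the stele, and its promoter drives the tag in the stele.

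The microRNAs and sites of the 8 targets that rose in hyl1 are shown here because these genes are listed as microRNA targets. Each site is the best match within a family chosen beforehand. MicroRNA levels are not part of the data used here, and whether the sites account for the rises was not tested. Sequences were read from RefSeq TAIR10.1, each 5′ to 3′. Capitals in a microRNA mark the seed, bases 2 to 8, and capitals in a site mark bases that pair with the microRNA by Watson-Crick rules.
miR159a: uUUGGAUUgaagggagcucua
MYB33 and MYB65 coding site: UgGAGCUCCCUUCAuUCCAAu
miR319c: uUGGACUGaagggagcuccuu
TCP4 coding site: gAGGgGucCCCUUCAGUCCAg
miR169d: uGAGCCAAggaugacuugccg
NF-YA2 3′ UTR site: aGGCAAaUCAUCuUUGGCUCA
miR169h: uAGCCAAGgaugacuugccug
NF-YA3 3′ UTR site: agGGgAAGUCAUCCUUGGCUA
miR824-5p: uAGACCAUuugugagaaggga
AGL16 3′ UTR site: UCuCUUCUCACAAAUGGUCUA
miR403-3p: uUAGAUUCacgcacaaacucg
AGO2 3′ UTR site: gGAGUUUGUGCGUGAAUCUAA
miR398a-3p: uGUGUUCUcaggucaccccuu
CSD1 5′ UTR site: AAGGGGUuuCCUGAGAuCACA
MYB33 and MYB65 hold the same 21 bases, of which 18 pair with miR159a. AGL16 and AGO2 pair at 20 of 21 bases, TCP4 at 16 of 21, and NF-YA2, NF-YA3 and CSD1 at 18 of 21. The 7 microRNAs have 7 different seeds. Targets that were not called can pair as well, with TCP3 at 16 of 21 bases and SULTR2;1 at 18 of 21.

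The hyl1 libraries had 3687167 and 3686938 counts and the Col0 libraries 2868803 and 4018367, the lowest totals of the series. The 10 genes with most counts took 20.0 to 22.8% of every library, so neither genotype stood apart in this respect. On the log2 CPM scale the pair of hyl1 libraries correlated at r = 0.941 across genes and the pair of Col0 libraries at 0.925. Col0 replicate 1 correlated with the hyl1 libraries at 0.909 and 0.907, and Col0 replicate 2 at 0.929 and 0.934. By this measure Col0 replicate 2 was closer to both hyl1 libraries than to Col0 replicate 1. HYL1 (AT1G09700), the mutated gene, had 8.59 and 10.1 normalised CPM in hyl1, against 15.7 and 12.9 in Col0. Both hyl1 libraries were below both Col0 libraries, but transcripts were still counted (31 and 35 in hyl1, 50 and 49 in Col0), and the log2 fold change of -0.61 ± 0.39 (SE) missed the threshold (edgeR adjusted p = 0.77). In the fit of all 24 libraries HYL1 had log2 fold changes of -1.03 to -2.51 in the other 5 lines, so the SHR line gave the smallest one. A mutation need not remove the mRNA, so this count gives no firm check of the labels. The SHR gene (AT4G37650), whose promoter drives the tag, had 88.1 and 85.4 CPM in hyl1, against 93.2 and 75.0 in Col0, and the groups overlapped.

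The stele label was checked against marker genes. Summed over 11 xylem markers, the hyl1 libraries had 1093 and 1097 CPM and the Col0 libraries 997 and 905, against 67.9 to 250 in the 16 libraries of the other layer lines. Summed over 15 procambium markers they had 651 and 588 CPM in hyl1, against 769 and 653 in Col0, where the other layer lines had 175 to 299. The pericycle sum was 268 and 310 CPM in hyl1, against 418 and 456 in Col0, inside the range of the other layer lines (85.4 to 682). The phloem sum was 8517 and 7946 CPM in hyl1, against 11827 and 14108 in Col0, also inside the range of the other layer lines (1674 to 22946), and most of it came from FTIP1. Without FTIP1 it was 422 and 472 CPM in hyl1, against 357 and 412 in Col0, the opposite order. FTIP1 had 141 and 146 CPM in the Col0 libraries of the 35S line, which marks ribosomes across the root. In the Col0 libraries of the CO2 line, the cortex line, it had 22691 and 22622 CPM, so its level was not particular to the stele line. Markers of other layers were also present in both genotypes. The endodermis sum was 433 and 392 CPM in hyl1, against 360 and 411 in Col0. The epidermis sum was 276 and 266 CPM in hyl1, against 317 and 377 in Col0, and the root cap sum 152 and 151 in hyl1, against 132 and 134 in Col0. The 4 cortex markers summed to 3.63 to 6.14 CPM in the 4 libraries and none of them passed the filter. In the 35S line the xylem (327 to 422 CPM), procambium (481 to 542) and epidermis (178 to 233) sums were below all 4 SHR-line libraries. The endodermis (587 to 795) and root cap (304 to 396) sums were above them. The pericycle sum (321 to 412) lay between hyl1 and Col0 of the SHR line. The phloem sum without FTIP1 (432 to 592) was above Col0 and overlapped hyl1. In pull-downs of whole roots like these, fewer cells of a type and less RNA per cell cannot be told apart.

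**Figure D1:**
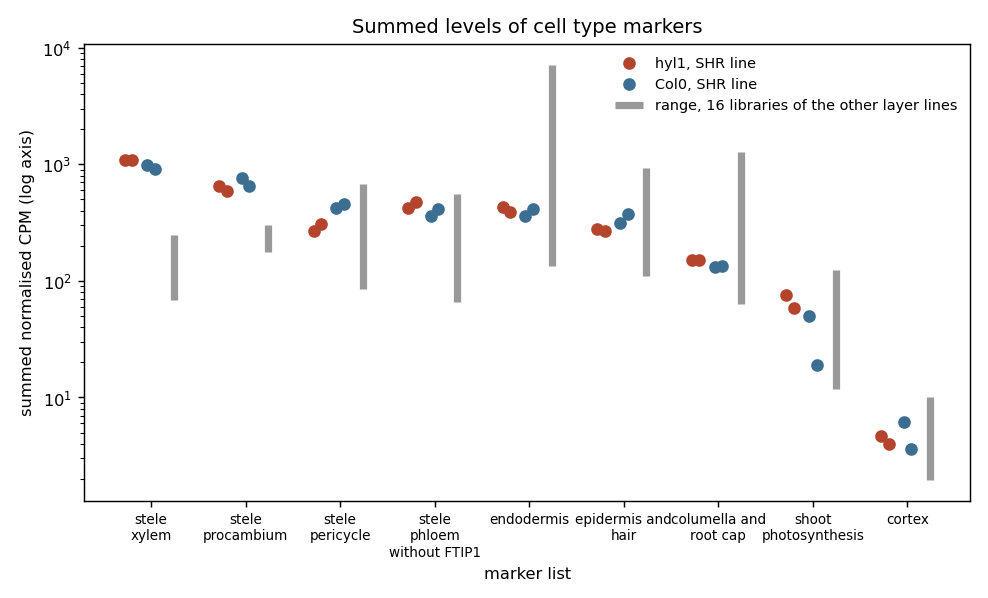
Summed normalised CPM of each marker list on a log axis, with the 2 hyl1 and the 2 Col0 libraries of the SHR line as points and the range over the 16 libraries of the other layer lines as a grey bar. The xylem and procambium sums of all 4 SHR-line libraries lie above every library of the other layer lines, while the pericycle sums of hyl1 (268 and 310) lie below those of Col0 (418 and 456).

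In hyl1, 31 genes rose and 7 fell at an edgeR adjusted p under 0.05, out of 18054 tested. These are 0.172% of the tested genes for rises and 0.0388% for falls, 0.210% in all, and the median change over all genes was -0.01 on the log2 scale. At an unadjusted p under 0.05 there were 1469 genes (8.14%). The rises include 8 microRNA targets, 4 genes of the 2-oxoglutarate dioxygenase family, 4 cytochrome P450 genes and 2 oxidosqualene cyclases, classes that were drawn up after the values were seen. The falls include a cold-induced gene, a glutathione transferase and secreted proteins of several families. Leaving out 1 library moved the count to 17 without hyl1 replicate 1, 54 without hyl1 replicate 2, 296 without Col0 replicate 1 and 950 without Col0 replicate 2, and 12 of the 38 genes were called in all 4 of these fits. In a fit of all 24 libraries 19 genes were called in the SHR line, 14 of them among the 38. The 38 genes were spread over all 5 chromosomes, with 8, 6, 12, 6 and 6 on chromosomes 1 to 5, and the neighbours among them were AT1G52790, AT1G52800 and AT1G52820, and AT2G42247 with CYP712A1.

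**Figure D2:**
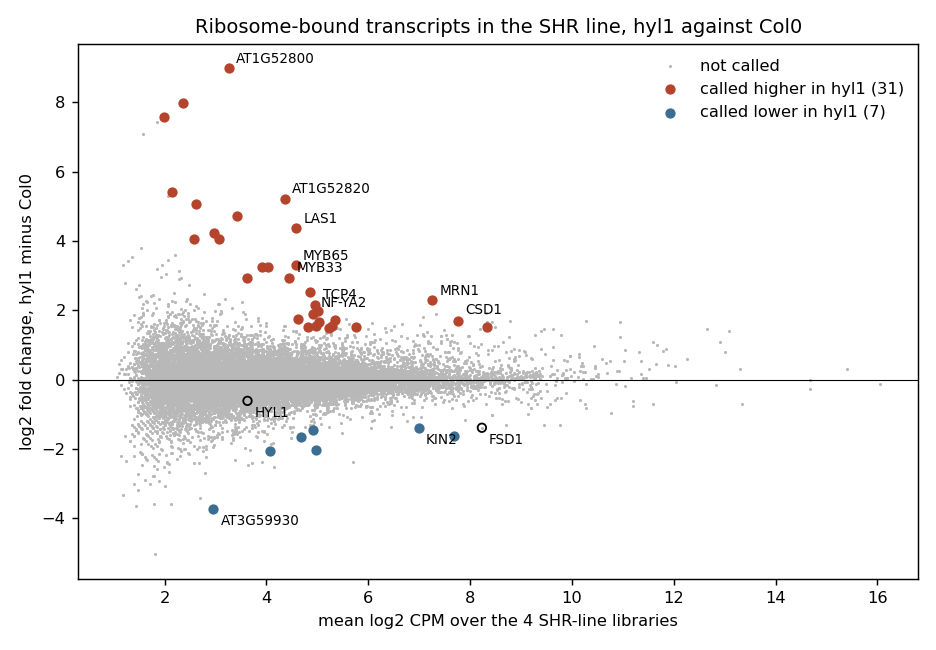
Each point is 1 of the 18054 tested genes, with its mean log2 CPM over the 4 libraries on the x axis and the log2 fold change, hyl1 minus Col0, on the y axis. The 31 called rises reach 8.98 (AT1G52800) and the 7 called falls reach -3.72 (AT3G59930), while HYL1 (-0.61) and FSD1 (-1.39), drawn as open circles, were not called.

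Of 130 listed microRNA targets, 104 were tested, and 8 rose while none fell. Over the whole list both hyl1 libraries were above both Col0 libraries for 50 targets (48.1%) and below for 9 (8.65%), where all tested genes gave 18.2% above and 18.9% below. The median log2 fold change of the 104 targets was 0.43, with a range of -1.36 to 3.31. Members were in part chosen with results of this series known, and 26 of the 130 did not pass the filter.

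The miR159 targets changed most. MYB65 (AT3G11440), a GAMYB-like transcription factor needed in anthers that slows growth when miR159 is missing, had 41.8 and 42.7 CPM in hyl1, against 2.2 and 6.06 in Col0 (log2 fold change 3.31 ± 0.39, SE, edgeR adjusted p = 0.0025). Its close relative MYB33 (AT5G06100) had 39.6 and 35.8 CPM in hyl1, against 5.33 and 4.48 in Col0 (2.94 ± 0.33, edgeR adjusted p = 0.0022). Both genes were low in every Col0 library and the groups were far apart. TCP4 (AT3G15030), a CIN-type transcription factor of the miR319 group that limits cell proliferation in leaves, had 53.2 and 46.7 CPM in hyl1, against 9.73 and 12.4 in Col0 (2.17 ± 0.28, edgeR adjusted p = 0.0063). These 3 genes were called whichever library was left out and in the fit of all 24 libraries.

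The subunits of the CCAAT-binding factor NF-Y followed. NF-YA2 (AT3G05690) had 46.0 and 47.6 CPM in hyl1, against 14.1 and 11.1 in Col0 (1.90 ± 0.28, edgeR adjusted p = 0.0147), and kept its call whichever library was left out. NF-YA3 (AT1G72830) had 35.2 and 39.2 CPM in hyl1, against 11 and 11.1 in Col0 (1.75 ± 0.29, edgeR adjusted p = 0.0258). The libraries of each group were close together for both genes. AGL16 (AT3G57230), a MADS-domain factor that miR824 restricts and that acts in stomatal development, had 59.5 and 62.9 CPM in hyl1, against 22.3 and 15.3 in Col0 (1.71 ± 0.27, edgeR adjusted p = 0.0214). AGO2 (AT1G31280), an Argonaute of antiviral defence and the target of miR403, had 36.8 and 44.7 CPM in hyl1, against 14.7 and 13.7 in Col0 (1.52 ± 0.28, edgeR adjusted p = 0.0419). In these 4 genes both hyl1 libraries were above both Col0 libraries, as in 18.2% of all tested genes. The genes were picked by their difference in these same libraries, so this adds no support. Without hyl1 replicate 1 the adjusted p was 0.0627 for NF-YA3, 0.0567 for AGL16 and 0.0738 for AGO2, and without hyl1 replicate 2 it was 0.0563 for NF-YA3 and 0.16 for AGO2. In the fit of all 24 libraries AGL16 was called, and the adjusted p was 0.239 for NF-YA2, 0.0617 for NF-YA3 and 0.152 for AGO2.

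**Figure D3:**
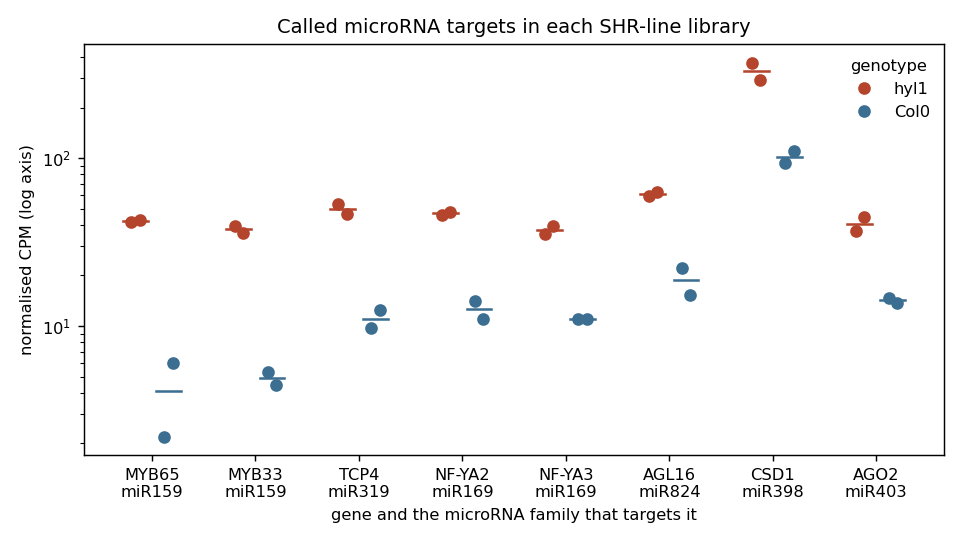
Normalised CPM on a log axis of the 8 called microRNA targets in each library, hyl1 left of Col0, with a point per library and a bar at the mean of 2. For each gene both hyl1 libraries lie above both Col0 libraries, from MYB65 (41.8 and 42.7 against 2.2 and 6.06) to AGO2 (36.8 and 44.7 against 14.7 and 13.7). The same holds for 18.2% of all tested genes, and these 8 were picked by their calls.

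Of the 4 tested miR398 targets, CSD1 rose and the other 3 were not called. CSD1 (AT1G08830), the cytosolic copper/zinc superoxide dismutase and a target of miR398, had 370 and 292 CPM in hyl1, against 93.2 and 111 in Col0 (1.70 ± 0.25, edgeR adjusted p = 0.0147). Its adjusted p was 0.148 without hyl1 replicate 1 and 0.143 in the fit of all 24 libraries. On the scale of that fit CSD1 had 364 and 287 CPM in hyl1, against 91.2 and 109 in Col0, while the Col0 libraries of the other 5 lines had 273 to 909, so the Col0 libraries of the SHR line were the low ones and the hyl1 libraries lay inside that range. The plastid enzyme CSD2 (AT2G28190) had 172 and 147 CPM in hyl1, against 78.5 and 68.2 in Col0, with a log2 fold change of 1.12 ± 0.24 that was not called (edgeR adjusted p = 0.086). CCS (AT1G12520), the chaperone that loads copper into both enzymes, had 36.3 and 28.3 CPM in hyl1, against 12.2 and 12.1 in Col0 (1.41 ± 0.30, edgeR adjusted p = 0.090). For all 4 tested miR398 targets both hyl1 libraries were above both Col0 libraries, as for 18.2% of all tested genes, with a log2 fold change of 0.34 for COX5b. FSD1 (AT4G25100), the iron superoxide dismutase that plants make in place of the copper enzymes when copper is short, had the opposite sign, with 131 and 202 CPM in hyl1, against 531 and 338 in Col0 (-1.39 ± 0.29, edgeR adjusted p = 0.086, not called). SPL7, the regulator of the copper response, had 37.9 and 37.8 CPM in hyl1, against 47.4 and 37.9 in Col0. In the annotation the end of CSD1 overlaps that of the antisense gene AT1G08840 by 211 bases, and that gene had 85.9 and 63.2 CPM in hyl1, against 28.9 and 31.9 in Col0 (edgeR adjusted p = 0.066). The sources used here do not say whether reads were assigned by strand.

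The other tested targets, among them further members of families with a call, were not called, and several were close to the threshold. SULTR2;1 (AT5G10180), a sulfate transporter of xylem parenchyma and a target of miR395, had 58.2 and 62.9 CPM in hyl1, against 27.6 and 15.8 in Col0 (1.49 ± 0.29, edgeR adjusted p = 0.060). TCP3, another miR319 target, had 19.7 and 22.5 CPM in hyl1, against 7.22 and 5.0 in Col0 (1.79 ± 0.39, edgeR adjusted p = 0.092). Among the class III HD-ZIP genes of miR165 and miR166, which pattern the vascular tissue, 0 of 5 passed, with a family median of 0.43 and the largest value at ATHB-15 (172 and 167 CPM in hyl1, against 106 and 121 in Col0, edgeR adjusted p = 0.52). ARF4 of the TAS3 pathway had 21.9 and 27.4 CPM in hyl1, against 15.7 and 15.0 in Col0, and none of the 3 tested targets of that pathway was called. All 3 had both hyl1 libraries above both Col0 libraries, as had 18.2% of all tested genes. The family medians were 0.68 for miR156 (6 tested), 0.22 for miR167 (3), 0.17 for miR393 (4) and -0.06 for miR172 (4), with no call in any. LAC2 of miR397 was the target with the lowest unadjusted p among those that were lower, at 4.16 and 3.46 CPM in hyl1, against 8.16 and 8.69 in Col0 (-1.14 ± 0.52, edgeR adjusted p = 0.59).

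**Figure D4:**
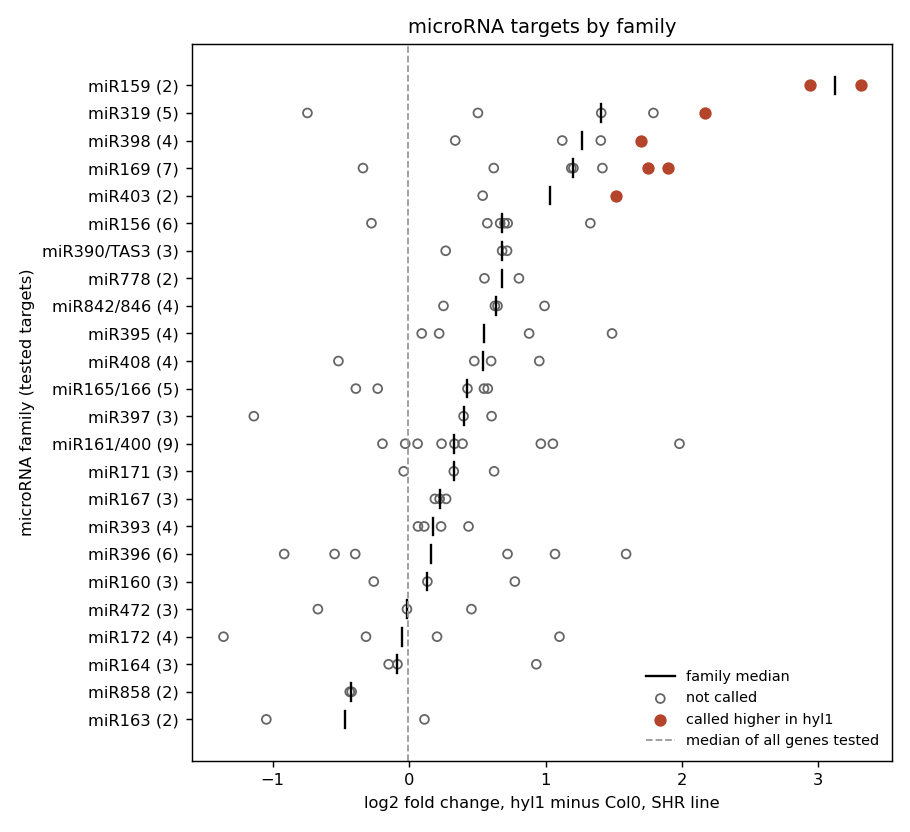
Log2 fold change, hyl1 minus Col0, of each tested target in families with at least 2 tested members, ordered by family median (black bar), with called genes filled and the median of all genes as a dashed line. Among the families drawn, miR159 has the highest median (3.12), followed by miR319 (1.41), miR398 (1.26) and miR169 (1.20). Of all 35 families 6 hold a call, among them miR824 (1.71), which has 1 tested target and is not drawn.

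Primary microRNA transcripts were mostly too low to test: 9 of 178 passed the filter and none was called. MIR156c (AT4G31877) was counted 43 times in hyl1 and not at all in Col0, at least 14.1-fold higher against a floor of 3 counts over the group, and missed the threshold (edgeR adjusted p = 0.052). MIR398b had 7.2 and 14.1 CPM in hyl1, against 2.82 and 1.05 in Col0 (2.47 ± 0.63, edgeR adjusted p = 0.18), and MIR824 9.97 and 8.08 CPM in hyl1, against 2.82 and 2.90 in Col0 (1.65 ± 0.54, edgeR adjusted p = 0.35). MIR398c, whose mature miR398c-3p has the same sequence as miR398b-3p, had 10.8 and 10.7 CPM in hyl1, against 12.9 and 6.06 in Col0. Its groups overlapped (0.20 ± 0.46, edgeR adjusted p = 0.97). MIR163, the one with most counts, had 37.9 and 45.6 CPM in hyl1, against 19.1 and 25.8 in Col0. A transcript of this kind that passed the filter only through its hyl1 libraries had to differ, so the 6 of 9 with both hyl1 libraries above both Col0 libraries carry no weight as a count.

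Among 30 tested genes of the small RNA machinery AGO2 alone was called. DCL1 (AT1G01040), itself a target of miR162, had 72.0 and 58.9 CPM in hyl1, against 19.8 and 46.3 in Col0 (0.97 ± 0.33, edgeR adjusted p = 0.38). AGO1, the target of miR168, had 177 and 156 CPM in hyl1, against 81.3 and 189 in Col0, so the groups overlapped and Col0 replicate 1 was the low library for both genes. SGS3, which helps to make trans-acting siRNAs, had 17.2 and 28.0 CPM in hyl1, against 7.53 and 11.1 in Col0 (1.27 ± 0.38, edgeR adjusted p = 0.29). SE, HEN1 and HST, which act beside or after HYL1, had log2 fold changes of -0.03, -0.05 and -0.20. None of the 5 tested TAS loci was called, and their median was -0.20.

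A second set of genes was close to absent in Col0 and counted in hyl1, so several of them passed the filter through the hyl1 libraries alone. AT1G52800, of the 2-oxoglutarate dioxygenase family, had 58 and 69 counts in hyl1 and none in either Col0 library, at least 41.8-fold higher against the floor of 3 counts over the group (edgeR adjusted p = 0.0022). Its neighbour AT1G52820 had 41.0 and 36.6 CPM in hyl1, against 0.941 and 1.05 in Col0 (5.23 ± 0.42, edgeR adjusted p = 0.000132), the smallest adjusted p of the comparison. AT1G52790, the third gene of that row, had 17.7 and 9.81 CPM in hyl1, against 0.00 and 1.32 in Col0 (edgeR adjusted p = 0.0419). AT1G15540, of the same family on the same chromosome but not beside them, had 37 and 27 counts in hyl1 and none in Col0, at least 21.1-fold higher (edgeR adjusted p = 0.0199). Without hyl1 replicate 1 the adjusted p was 0.169 for AT1G52790 and 0.0683 for AT1G15540, and in the fit of all 24 libraries only AT1G52790 of the 4 was not called (0.481). The 3 neighbours are annotated as 1 family and may share reads, which was not tested. AT1G52800, AT1G52820 and AT1G15540, with CYP712A2, HSD7 and AT2G42247, belong to 8 genes listed because they rose across this series, of which 6 were called here, so their direction is not independent evidence.

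Cytochrome P450 enzymes, which oxidise small molecules, gave 4 rises. CYP712A1 (AT2G42250) had 20.8 and 36.4 CPM in hyl1, against 2.2 and 3.69 in Col0 (3.24 ± 0.44, edgeR adjusted p = 0.0093). The long non-coding gene AT2G42247 covers all 1775 bases of CYP712A1 on the opposite strand and had nearly the same values, 18.6 and 33.8 CPM in hyl1, against 1.57 and 3.69 in Col0, so reads of the pair cannot be told apart. CYP81D2 (AT4G37360) had 12.7 and 26.5 CPM in hyl1, against 0.314 and 1.05 in Col0 (4.72 ± 0.65, edgeR adjusted p = 0.0093). CYP712A2 (AT5G06905) had 76 counts over the hyl1 group and 2 over the Col0 group, a ratio of 37.5 with a 95% counting interval of 10.03 to 315, and CYP76G1 (AT3G52970) had 8.03 and 12.4 CPM in hyl1, against 0.941 and 0.263 in Col0. Without hyl1 replicate 2 the adjusted p was 0.0948 for CYP712A2 and 0.183 for CYP76G1. In the fit of all 24 libraries it was 0.549 for CYP81D2 and 0.107 for CYP712A2, and the other 2 were called. CYP93D1 (AT5G06900), next to CYP712A2, had 34 counts in hyl1 and none in Col0, at least 11.2-fold higher, and was not called (edgeR adjusted p = 0.091).

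HSD7 (AT5G50690), a hydroxysteroid dehydrogenase of the kind found on seed oil bodies, had 27 and 21 counts in hyl1 and none in Col0, at least 15.8-fold higher (edgeR adjusted p = 0.0419, and 0.152 without hyl1 replicate 1). Its copy HSD4 (AT5G50590) is identical to it over all 1555 annotated bases and had 50 counts in hyl1 and 1 in Col0 (edgeR adjusted p = 0.060). How reads with several matches were treated is not given, so the loci count as 1 uncertain signal.

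Both called oxidosqualene cyclases, which fold oxidosqualene into triterpene skeletons, were higher in hyl1. LAS1 (AT3G45130), lanosterol synthase, had 43.2 and 46.5 CPM in hyl1, against 1.26 and 2.90 in Col0 (4.37 ± 0.39, edgeR adjusted p = 0.000234). MRN1 (AT5G42600), marneral synthase, had 183 and 322 CPM in hyl1, against 51.8 and 51.1 in Col0 (2.30 ± 0.29, edgeR adjusted p = 0.0051). The hyl1 libraries differed from each other more than the Col0 libraries did, but both were well above them, and both genes were called whichever library was left out. With a spread shared by all 24 libraries the adjusted p of MRN1 was 0.737. The other genes of the marneral cluster, named after the values were seen, were not called: CYP71A16 had 29.9 and 31.7 CPM in hyl1, against 22.0 and 18.4 in Col0, and CYP705A12 18.6 and 17.6 in hyl1, against 7.22 and 11.1 in Col0. THAS1, which opens the thalianol pathway, had 271 and 306 CPM in hyl1, against 258 and 341 in Col0.

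Of the other called rises, CP1 (AT4G36880) encodes a cysteine proteinase known to rise in plants that lack miR159. It had 17.7 and 11.8 CPM in hyl1, against 0.628 and 1.05 in Col0 (4.06 ± 0.60, edgeR adjusted p = 0.0147, and 0.0676 without hyl1 replicate 1). AT2G37100, of the protamine P1 family, had 23.0 and 18.5 CPM in hyl1, against 1.57 and 3.69 in Col0 (2.93 ± 0.48, edgeR adjusted p = 0.0235). AT5G13210 had 61.5 and 35.5 CPM in hyl1, against 4.08 and 12.4 in Col0, and AT3G20350 had 61.5 and 40.4 CPM in hyl1, against 11.6 and 14.0 in Col0. AT3G62460 had 470 and 482 CPM in hyl1, against 160 and 173 in Col0 (1.52 ± 0.24, edgeR adjusted p = 0.0199). In each of these genes both hyl1 libraries were above both Col0 libraries, as in 18.2% of all tested genes, which adds no support for genes picked by their calls. Without hyl1 replicate 1 the adjusted p was 0.0574 for AT2G37100, 0.0629 for AT5G13210, 0.0885 for AT3G20350 and 0.165 for AT3G62460, and without hyl1 replicate 2 it was 0.107 for AT3G62460. In the fit of all 24 libraries CP1 and AT3G62460 were called, and the adjusted p was 0.128 for AT2G37100, 0.143 for AT5G13210 and 0.365 for AT3G20350.

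Other rises came from genes outside the rule for named genes, given here after their values were seen. ACS6 (AT4G11280), an enzyme of ethylene synthesis induced by stress, had 57.6 and 50.8 CPM in hyl1, against 23.2 and 15.5 in Col0 (1.49 ± 0.28, edgeR adjusted p = 0.049). The chitinase family gene AT2G43590 had 40.4 and 51.9 CPM in hyl1, against 14.1 and 17.1 in Col0, and AT4G04460, a saposin-like aspartyl protease, 57.3 and 57.7 in hyl1, against 15.1 and 24.0 in Col0. The acyltransferase family gene AT3G26040 had 53 counts over the hyl1 group and 1 over the Col0 group, a ratio of 52.3 with a 95% counting interval of 8.99 to 2105 (edgeR adjusted p = 0.0419). AT2G48030 and AT4G36980 had log2 fold changes of 1.51 and 1.66. The adjusted p of these 6 genes was 0.0574 to 0.168 without hyl1 replicate 1, and without hyl1 replicate 2 it was 0.0512 for AT4G04460, 0.0647 for AT3G26040, 0.136 for AT2G43590 and 0.183 for AT2G48030. None of the 6 was called in the fit of all 24 libraries (0.0871 to 0.737).

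The 7 falls were led by AT3G59930, which encodes a defensin-like peptide. It had 1.38 and 0.577 CPM in hyl1, against 13.2 and 13.7 in Col0 (-3.72 ± 0.60, edgeR adjusted p = 0.0235), and it was the only fall called whichever library was left out. In the fit of all 24 libraries none of the 7 falls was called, with adjusted p of 0.0617 for AT3G59930 to 0.737 for AT2G16005. AT3G59930 stands on a list of 8 genes that fell across this series, so its direction is not independent evidence. Of these 8 genes 7 were tested, and in all 7 both hyl1 libraries were below both Col0 libraries, as in 18.9% of all tested genes. GSTU14 (AT1G27140), a glutathione transferase, had 4.99 and 7.5 CPM in hyl1, against 25.7 and 26.3 in Col0 (-2.06 ± 0.36, edgeR adjusted p = 0.0413). AT2G16005, an MD-2-related lipid recognition protein, had 12.2 and 12.1 CPM in hyl1, against 61.5 and 37.9 in Col0 (-2.03 ± 0.31, edgeR adjusted p = 0.0155). KIN2 (AT5G15970), a cold and abscisic acid induced gene, had 70.6 and 70.1 CPM in hyl1, against 204 and 162 in Col0 (-1.38 ± 0.24, edgeR adjusted p = 0.038). Without hyl1 replicate 1 the adjusted p was 0.162 for GSTU14, 0.0629 for AT2G16005 and 0.377 for KIN2, and without hyl1 replicate 2 it was 0.289 for KIN2. The peroxidase AT3G49960 had 14.4 and 9.81 CPM in hyl1, against 38.6 and 37.7 in Col0, and the MYB-like gene AT3G11280 15.8 and 15.6 in hyl1, against 44.2 and 42.4 in Col0, both called (edgeR adjusted p = 0.0419) but not without either hyl1 library (0.0683 to 0.227). AT4G11320, a papain-type cysteine protease, had 93.3 and 110 CPM in hyl1, against 383 and 239 in Col0 (-1.62 ± 0.27, edgeR adjusted p = 0.030, and 0.35 and 0.0988 without hyl1 replicates 1 and 2).

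Genes that define tissues of the stele were not among the calls. None of 11 xylem genes passed, with a median of -0.07: the xylem protease XCP1 had 266 and 252 CPM in hyl1, against 214 and 189 in Col0, and XCP2 240 and 232 in hyl1, against 188 and 186 in Col0, while the regulators MYB46 and MYB83 had log2 fold changes of -0.58 and -0.61. None of 15 procambium genes passed (median -0.21), and TMO6, a DOF factor, had the lowest unadjusted p, at 30.2 and 28.9 CPM in hyl1, against 69.7 and 50.6 in Col0 (-1.02 ± 0.26, edgeR adjusted p = 0.18). WOL, the cytokinin receptor that vascular patterning depends on, had 31.9 and 47.6 CPM in hyl1, against 56.2 and 70.0 in Col0. None of 12 phloem genes passed (median -0.42). OPS, needed for protophloem continuity, had 163 and 221 CPM in hyl1, against 61.5 and 99.8 in Col0 (1.25 ± 0.28, edgeR adjusted p = 0.109), while FTIP1 had 8214 and 7584 CPM in hyl1, against 11716 and 13911 in Col0, and BAM3 60.4 and 66.9 in hyl1, against 106 and 101 in Col0. By the values given above, the FTIP1 level was not particular to the stele line.

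None of 5 tested pericycle genes was called (median -0.62). Of these 3 had both hyl1 libraries below both Col0 libraries and 1 above, where all tested genes gave 18.9% below and 18.2% above, and several encode transporters that load the xylem. PHO1, which exports phosphate, had 137 and 167 CPM in hyl1, against 231 and 236 in Col0 (-0.62 ± 0.24, edgeR adjusted p = 0.46). NRT1.5, also called NPF7.3, which moves nitrate, had 83.9 and 110 CPM in hyl1, against 157 and 179 in Col0 (-0.79 ± 0.24, edgeR adjusted p = 0.31). SKOR, an outward potassium channel, had 3.32 and 5.77 CPM in hyl1, against 9.41 and 26.3 in Col0, while the boron exporter BOR1 was at 37.4 and 21.6 CPM in hyl1, against 15.1 and 14.0 in Col0 (edgeR adjusted p = 0.34). None of these values passed the threshold. The pericycle marker sum given above includes these genes, so its lower value in hyl1 is not separate from theirs.

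Of the lists for other layers, none held a call. The endodermis list had 20 tested genes with a median of 0.08. In the epidermis list (16 tested, median -0.26) 9 genes had both hyl1 libraries below both Col0 libraries and 1 above, where all tested genes gave 18.9% below and 18.2% above. Among the 9, PRP3, a cell wall protein of root hairs, had 48.2 and 42.1 CPM in hyl1, against 87.6 and 89.5 in Col0 (-0.97 ± 0.24, edgeR adjusted p = 0.16). All 9 tested root cap genes had a positive log2 fold change (median 0.51), where 8901 of all 18054 tested genes were positive. In 4 of the 9 both hyl1 libraries were above both Col0 libraries and in 0 below, beside the same 18.2% and 18.9%. Their levels were at most 54.8 CPM, and none of the 9 was at an unadjusted p under 0.05.

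Nutrient and hormone lists gave 1 call, KIN2. In the phosphate starvation list 6 of 11 tested genes had both hyl1 libraries below both Col0 libraries (median -0.77), as had 18.9% of all tested genes. PS2, a phosphatase induced when phosphate is short, had 4.99 and 5.19 CPM in hyl1, against 45.8 and 13.7 in Col0 (-2.53 ± 0.51, edgeR adjusted p = 0.066), and SPX1 20.5 and 31.4 in hyl1, against 82.5 and 41.1 in Col0 (edgeR adjusted p = 0.22), so Col0 replicate 1 was the highest library for both. The 9 cytokinin genes had a median of -0.30, with the response regulator ARR7 at 3.6 and 4.04 CPM in hyl1, against 11.3 and 13.7 in Col0 (-1.70 ± 0.47, edgeR adjusted p = 0.22). In the abscisic acid and cold list KIN1 and RD29A had log2 fold changes of -1.08 and -1.36 beside the called KIN2, and COR47 0.03. The 13 auxin response genes had a median of 0.00 and the 12 sulfur genes 0.02. Nuclear photosynthesis genes summed to 75.9 and 58.0 CPM in hyl1, against 49.8 and 18.9 in Col0. None of the 5 tested was called, but 3 had an unadjusted p under 0.05 and 4 had both hyl1 libraries above both Col0 libraries (18.2% of all tested genes), with a median of 1.07. RCA, the activase of Rubisco, was at 21.9 and 13.8 CPM in hyl1, against 6.59 and 3.16 in Col0 (1.89 ± 0.47, edgeR adjusted p = 0.16). Lists for cell division, glucosinolates, the clock, nitrogen, iron and copper, jasmonate and heat held no call.

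Each other line of the series has its own Col0 libraries, so the 38 genes could be set beside their values there. In the WER, ACR4 and SCR lines the library content differed between genotypes. The 10 genes with most counts in the SHR line took 30.2 and 25.0% of hyl1 and 4.12 and 3.61% of Col0 in WER. In ACR4 it was 33.2 and 36.7% against 8.24 and 9.13%, and in SCR 8.46 and 8.21% against 15.4 and 26.4%. The hyl1 effect in these lines cannot be told apart from that difference. In the fit of all 24 libraries, 21 of the 31 rises and 5 of the 7 falls had the same sign in all 5 other lines. The share of all tested genes that did so was not computed. Among the 38, 6 rises and 1 fall stand on the lists of genes that moved across this series, so their agreement is not independent evidence. MYB33 ranged from 1.03 to 3.45 in those lines and TCP4 from 1.70 to 2.99, beside 2.95 and 2.18 in the SHR line. CSD1 had the same sign in 2 of 5 lines only, with log2 fold changes of 0.81 in the 35S line, which marks ribosomes across the root, and -0.25 to 0.39 in the others, beside 1.70 here. AT2G37100 had -0.43 to -0.04 in the 35S, ACR4 and SCR lines, 0.84 in the CO2 line, the cortex line, and 1.32 in the WER line, beside 2.96 here. Other rises, such as LAS1 and CP1, also had their largest value in the SHR line. The 38 genes were picked by their calls in the SHR line, which favours larger changes there.

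The difference itself was tested against the mean effect in the 35S and CO2 lines, over 21563 genes in 12 libraries. These 2 lines were chosen from the data, because the share of a few dominant transcripts was alike in both genotypes there. The 35S line marks ribosomes across the root, so it also takes in the stele. No gene was called as more positive in the SHR line (0.00%) and 2 as more negative (0.00928%), while 1562 had an unadjusted p under 0.05 by edgeR and DESeq2 called 5 more positive and 7 more negative. AT4G14060, of a polyketide cyclase and lipid transport family, had a log2 fold change of -1.09 in the SHR line, against 1.21 in the 35S line and 2.69 in the CO2 line (difference -3.04 ± 0.40, edgeR adjusted p = 0.0074). It had 4.10 and 4.33 CPM in hyl1 and 10.6 and 7.56 in Col0 in the SHR line, and 56.0 and 49.9 CPM in hyl1 and 9.31 and 7.10 in Col0 in the CO2 line. For hyl1 against Col0 in the SHR line alone AT4G14060 was not called (-1.10 ± 0.52, edgeR adjusted p = 0.62). AT4G11320 had -1.61 in the SHR line, against -0.07 and 0.90 in the 35S and CO2 lines (difference -2.02 ± 0.29, edgeR adjusted p = 0.0145). Against the mean of all 5 other lines AT4G14060 was not called (-1.87, edgeR adjusted p = 0.0655), its value in the WER line being -3.48, lower than here, while AT4G11320, with 3.01 in the WER line, was (-2.78, edgeR adjusted p = 0.0035). That test called 62 genes, 1 of them shared with the 2. It takes in the WER, ACR4 and SCR lines, whose library content differed between genotypes as given above. Leaving out Col0 replicate 1, hyl1 replicate 1 or hyl1 replicate 2 of the SHR line left no gene called, with adjusted p of 0.0943, 0.197 and 0.147 for AT4G14060 and 0.0943, 0.523 and 0.242 for AT4G11320, and without Col0 replicate 2 there were 99 calls. For CSD1 the difference was 1.34 ± 0.32 and was not called (edgeR adjusted p = 0.39), nor was that of CCS (1.16 ± 0.35, edgeR adjusted p = 0.53) or of MYB33 (0.69 ± 0.37, edgeR adjusted p = 0.74). The CSD1 difference was called by DESeq2 (adjusted p = 0.0495) and with no filter on low counts (edgeR adjusted p = 0.00356). It was not called against the mean of all 5 other lines (edgeR adjusted p = 0.126). The SHR-line libraries bear their own run of library numbers in the labels, so line and run cannot be told apart in this test.

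**Figure D5:**
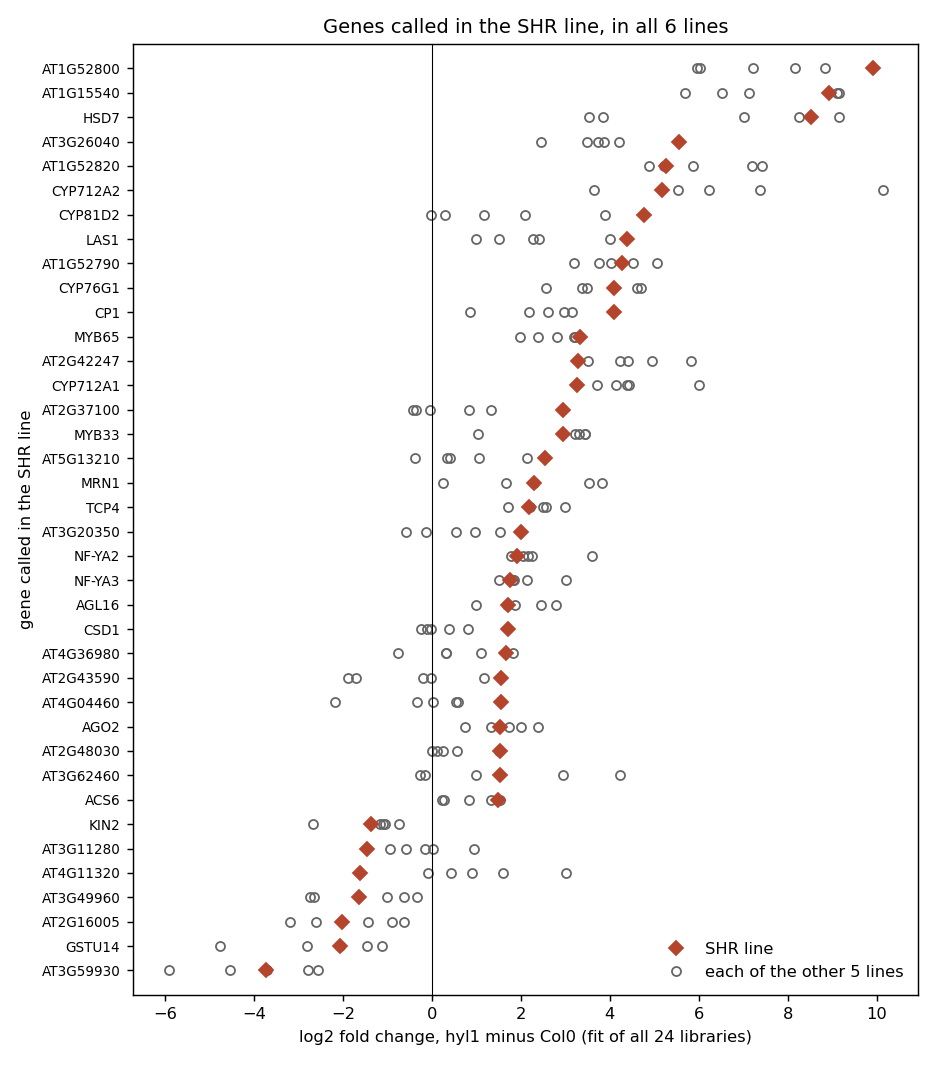
Log2 fold change, hyl1 minus Col0, of the 38 genes called in the SHR line, from the fit of all 24 libraries, with the SHR line as a filled diamond and each of the other 5 lines as an open circle. MYB33, TCP4 and the dioxygenases are positive in every line. CSD1 (1.70), AT2G37100 (2.96) and other rises such as LAS1 and CP1 lie right of the other lines. AT4G11320 (-1.61) and AT3G11280 lie left of them. The genes were picked by their calls in the SHR line, which favours larger changes there. Values beyond about 5 rest on groups with few or no counts and depend on the fit's prior. In the WER, ACR4 and SCR lines library content also differed between genotypes.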

How the data were processed

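The authors deposited raw read counts per gene, 1 table for 24 libraries and 33602 genes, made with featureCounts (Subread, version not given) after CASAVA 1.8.2, TopHat2 2.0.11 and Bowtie2 2.2.1.0 on TAIR10, per the submitters' processing notes. All columns of the table matched a sample by its labels. Symbols, gene order and sequences came from RefSeq TAIR10.1, which held 32835 (97.7%) of the IDs, and no coordinates are given since the builds are named differently.

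Counts of the 4 SHR-line libraries were tested with edgeR 4.0.16 in R 4.3.3 (TMM scaling, filterByExpr set to at least 10 counts and a total of 15, quasi-likelihood F test). P-values were adjusted by Benjamini-Hochberg across every gene tested, and an adjusted p under 0.05 made a call. Only these 4 libraries entered the fit, since a spread shared by all 24 was larger (common dispersion 0.126 against 0.0546). CPM are on the TMM-scaled library size, and errors are SE of the log2 fold change. The difference between lines was tested with the same method on 12 libraries, and summed markers and values by line come from a fit of all 24. DESeq2 1.42.0 was an alternative. Intervals and floors (3 counts) cover counting error only. The methods were tested on simulated counts.

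The members and 27 gene lists were chosen with earlier results of these data known. The rule for named genes takes HYL1, RPL18B and SHR, the 12 largest rises and falls among called genes with a mean log2 CPM of at least 3 that moved the same way at an unadjusted p under 0.05 in the 24-library fit, and up to 4 called members of each list (20 for microRNA targets, 8 for primary microRNA transcripts) or its 2 most expressed ones. It also takes the 6 smallest p in each direction for the difference between lines. The text names part of these, and other genes beside them.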

Additional observations from a re-analysis of the deposited data

Results flagged for a closer look

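A difference in the hyl1 effect between lines, called by its own test, flagged 2 genes. For AT4G14060 the effect in the SHR line minus the mean effect in the 35S and CO2 lines was -3.04 on the log2 scale (edgeR adjusted p = 0.0074). For AT4G11320 it was -2.02 (edgeR adjusted p = 0.0145). For hyl1 against Col0 in the SHR line alone, AT4G14060 was not called (-1.10 ± 0.52, edgeR adjusted p = 0.62). AT4G11320 was called there (-1.62 ± 0.27, edgeR adjusted p = 0.030). Against the mean of all 5 other lines AT4G14060 was not called (-1.87, edgeR adjusted p = 0.0655), with a log2 fold change of -3.48 in the WER line, while AT4G11320 was (-2.78, edgeR adjusted p = 0.0035). In the WER, ACR4 and SCR lines library content also differed between genotypes, as given above. Both calls against the 35S and CO2 lines were lost when Col0 replicate 1 or either hyl1 library of the SHR line was left out.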

How the results depend on the processing

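With RLE scaling the same 38 genes and 8 microRNA targets were called. Calls numbered 322 with no filter on low counts, 76 by DESeq2, 19 in 1 fit of all 24 libraries, 92 in 20 libraries without the WER line and 380 with a replicate block. After seeing the data, robust estimation (65) and a fit of 12 libraries (131) were added. Called microRNA targets numbered 17 with no filter, 4 in the 24-library fit and 18 with the block. Leaving out 1 library, which assumes that the lone one left varies like the other group, gave 17 to 950 calls and 4 to 25 targets. Genes differing from the 35S and CO2 lines numbered 129 with no filter, 12 by DESeq2, 62 against all 5 other lines and 0 to 99 when 1 library was left out. The cause was not tested. The replicate numbers share only a number: same-numbered libraries deviated with r = 0.05 across genes, so the block says nothing about pairing. With it all 38 calls remained. No called gene reversed. Of genes not called, SE and HEN1 turned to 0.0079 and 0.023 with the block, and ranges with 1 library left out were -0.39 to 0.47 for SE, -0.47 to 0.60 for HEN1, -0.38 to 0.026 for HST, -0.18 to 1.04 for AGO1, -0.23 to 0.27 for COR47, -0.094 to 0.21 for SHR and -0.24 to 0.17 for THAS1. With 2 libraries a group and the lowest depth of the series, smaller changes and low genes were not resolved.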

Other observations

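Metallothioneins, small cysteine-rich proteins that bind copper and zinc, gave no call. The 3 named here were picked after their values were seen, and they do not share a direction. MT1A had 415 and 387 CPM in hyl1, against 1134 and 851 in Col0 (log2 fold change -1.31 ± 0.26, SE, edgeR adjusted p = 0.060). MT1C had 87.2 and 81.9 CPM in hyl1, against 183 and 171 in Col0 (-1.07 ± 0.23, edgeR adjusted p = 0.092). MT2A had a positive value, with 19.4 and 16.7 CPM in hyl1, against 5.02 and 2.63 in Col0 (2.25 ± 0.46, edgeR adjusted p = 0.068). In all 3 genes the hyl1 and Col0 libraries did not overlap, as in 18.2% (above) and 18.9% (below) of all tested genes.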
